A study of Mus musculus with 72 samples.

Results

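The aminoacyl-tRNA synthetase genes were followed in the blood of mice exposed to neutrons or to x-rays. The set holds 36 genes, chosen by their names on the array: 20 whose symbols carry no suffix and encode the enzymes of the cytosol, and 16 with the suffix 2, which encode the enzymes of the mitochondrion. All 36 were on the array, with 44 probes, and 33 of them (19 cytosolic and 14 mitochondrial) were detected and tested among 16086 genes. The others were Yars, Mars2 and Nars2, the tyrosyl enzyme of the cytosol and the methionyl and asparaginyl enzymes of the mitochondrion, for which 89.3%, 44.6% and 85.7% of spots were outliers or not well above background.

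Each aminoacyl-tRNA synthetase joins 1 amino acid to its tRNA, the step that supplies charged tRNA to the ribosome. The cytosol and the mitochondrion mostly use separate nuclear genes for it, although Kars and Gars serve both compartments, and several cytosolic enzymes are held on the scaffold proteins Aimp1, Aimp2 and Eef1e1 as the multi-synthetase complex. Many cytosolic synthetase genes are known targets of ATF4, the transcription factor made when phosphorylation of eIF2 alpha slows protein synthesis during amino acid or heme shortage, and red cell precursors keep translating globin until the reticulocyte matures.

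The study exposed male C57BL/6 mice to 0.25 or 1 Gy from a neutron beam that models the spectrum of an improvised nuclear device and carries a gamma-ray component, or to 1 or 4 Gy of x-rays. Sham-irradiated mice killed on the same day served as controls, and blood was drawn on day 1, 3 or 7. Each of the 72 arrays held globin-reduced RNA from the blood of 1 mouse, and the 13 groups had 5 or 6 mice each. On day 1 there were 5 control, 6 neutron 0.25 Gy, 6 neutron 1 Gy, 6 x-ray 1 Gy and 5 x-ray 4 Gy mice, on day 3 there were 5 control, 6 neutron 0.25 Gy and 5 x-ray 1 Gy mice, and on day 7 there were 6 control, 5 neutron 0.25 Gy, 6 neutron 1 Gy, 5 x-ray 1 Gy and 6 x-ray 4 Gy mice. All groups carried the same wild-type background. Since whole blood was measured, fewer cells of a type and less RNA per cell cannot be told apart in any value given here.

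The label of blood was checked against markers before the synthetases were compared. The blood cell lists were present, with 18 of 18 reticulocyte, 11 of 11 T cell and 9 of 10 B cell markers detected. Hepatocyte markers were present too: 8 of 19 were detected, and their mean level lay above the array median in 42 of 72 mice, 5 of them controls. On day 1 this mean ran from 6.53 to 7.75 log2 units after 4 Gy x-rays and from -1.73 to 5.61 in the controls. On day 7 it stayed below the array median in all 6 controls and lay above it in 1 of 6 mice after 1 Gy neutrons and in 3 of 6 after 4 Gy x-rays. The day 7 arrays of the 1 Gy neutron group were also the dimmest of the series, with 40.2 to 50.3% of spots well above background against 54.3 to 63.9% in the day 7 controls. Both are named beside the results that they move with.

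Levels are given as log2 intensity relative to the median detected probe of the same array, so a level of 0 is that median, and differences between groups are log2 fold changes. A level describes 1 probe and was not set against the level of another gene. A gene was called when limma's moderated test gave an unadjusted p under 0.001 and a false discovery rate (Benjamini-Hochberg over all genes tested) under 0.05, and changes that did not pass are given as values only. Comparisons with the controls of a day share those controls.

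Promoter sequences were taken from RefSeq (GRCm38.p6), where 27 of the 36 genes had a window from 250 bases before to 50 bases after a transcription start. No window was available for Cars, Hars, Lars, Nars, Rars, Vars, Wars, Hars2 and Pars2, so these genes were not searched. The C/EBP-ATF response element, the composite site bound by ATF4, was searched as TGATGNAAN on either strand (NTTNCATCA on the other). It was found in 5 of the 27 windows (18.5%), all cytosolic: Aars, Gars, Iars, Tars and Yars, that is 5 of 13 cytosolic and 0 of 14 mitochondrial windows. Among all genes with a window, 1215 of 27025 (4.5%) held it. The E-box CACGTG, which Myc binds, was found in 5 of the 27 windows (Aars, Ears2, Farsb, Iars and Tars) and in 8.09% of all genes. The 250 bases before the start are printed for 3 genes in which a C/EBP-ATF match lies before the start, to show where the match lies. They are chr8:111033592-111033841 on the plus strand for Aars, chr6:55037751-55038000 on the plus strand for Gars and chr15:11399659-11399908 on the minus strand for Tars, each written 5′ to 3′ along the gene with the matches to either motif in capitals.
Aars: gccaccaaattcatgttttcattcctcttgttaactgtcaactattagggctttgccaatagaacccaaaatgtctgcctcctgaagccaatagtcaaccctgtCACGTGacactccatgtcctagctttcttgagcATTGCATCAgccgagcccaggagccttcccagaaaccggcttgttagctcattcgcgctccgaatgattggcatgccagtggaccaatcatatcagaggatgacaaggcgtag
Gars: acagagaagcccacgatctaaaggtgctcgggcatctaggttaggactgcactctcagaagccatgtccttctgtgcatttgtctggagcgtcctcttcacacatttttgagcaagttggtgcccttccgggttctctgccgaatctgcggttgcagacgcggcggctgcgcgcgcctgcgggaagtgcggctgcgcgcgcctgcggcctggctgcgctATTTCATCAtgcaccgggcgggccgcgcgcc
Tars: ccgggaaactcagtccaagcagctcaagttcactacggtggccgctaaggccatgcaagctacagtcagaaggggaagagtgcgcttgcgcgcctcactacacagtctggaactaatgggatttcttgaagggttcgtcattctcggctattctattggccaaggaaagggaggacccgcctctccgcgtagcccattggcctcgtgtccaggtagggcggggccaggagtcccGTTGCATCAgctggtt
In all 3 this C/EBP-ATF match lies on the antisense strand, with its first base at position -113 from the start in Aars, -31 in Gars and -16 in Tars. A match is a description of the letters, and whether ATF4 bound there was not measured.

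At day 7 after 1 Gy neutrons, the synthetase genes lay mostly below the controls. Of the 33 tested, 16 fell and 2 rose, and 27 had a fold change below 0. Among all genes 17.8% were called lower and 18.5% called higher in this comparison, 36.2% in either direction. The median difference was -0.63 over the 33 genes, -0.52 over the cytosolic and -0.77 over the mitochondrial enzymes, and -0.05 over all genes. Genes of both compartments were among them: 8 of 19 cytosolic and 8 of 14 mitochondrial genes fell. Of the genes compared, 7 cytosolic and 8 mitochondrial ones had every 1 Gy neutron mouse below every control, beside 18.1% of all genes.

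**Figure D1:**
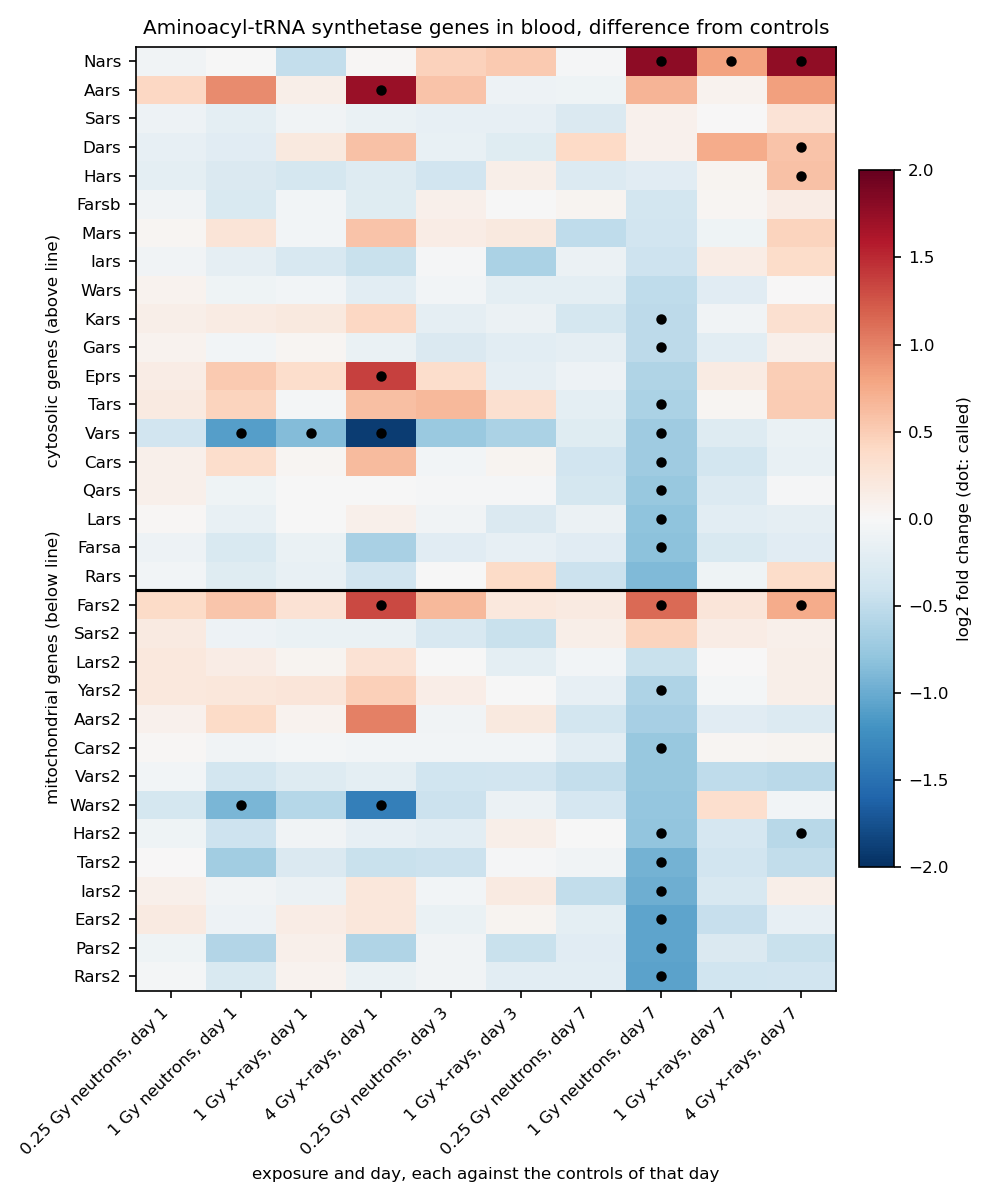
Log2 fold change of each tested synthetase gene (rows, cytosolic above and mitochondrial below) in the 10 comparisons with the controls of the day (columns), coloured from lower to higher, with a dot where the gene was called. The column of 1 Gy neutrons at day 7 holds 16 falls and 2 rises, and the columns of 0.25 Gy neutrons hold no call. With spike-in centring the 1 Gy neutron column of day 7 became 31 falls and no rise, beside 69.2% of all genes called.

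The largest falls were mitochondrial. Rars2, the mitochondrial arginyl enzyme, lay at 0.97, 1.17, 1.19, 1.20, 1.20 and 1.25 in the 6 controls and at -0.08, -0.07, 0.06, 0.08, 0.29 and 0.29 after 1 Gy neutrons. All 6 irradiated mice were below all controls, a fall by 1.07 (SE 0.12, adjusted p = 7.44e-06, limma), or 2.10-fold. Pars2, which charges mitochondrial tRNA with proline, fell by 1.06 (SE 0.17, adjusted p = 0.000163), from a median of 0.06 in the controls to -0.91. Ears2, the mitochondrial glutamyl enzyme, fell by 1.05 (SE 0.13, adjusted p = 2.5e-05), but its probe was well above background on only 2 of the 6 irradiated arrays. The other mitochondrial genes that fell were Iars2 (-0.97), Tars2 (-0.95), Hars2 (-0.78), Cars2 (-0.75) and Yars2 (-0.62), the isoleucyl, threonyl, histidyl, cysteinyl and tyrosyl enzymes.

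Among the cytosolic enzymes, the largest fall was that of Farsa, the catalytic subunit of the phenylalanyl enzyme. It ran from 1.42 to 1.85 in the controls (median 1.71) and from 0.55 to 1.18 after 1 Gy neutrons (median 0.84), so the groups did not overlap, and it fell by 0.83 (SE 0.13, adjusted p = 0.000167). The partner subunit Farsb differed by -0.36 and was not called. Lars (-0.80), Qars (-0.75) and Kars (-0.52), the leucyl, glutaminyl and lysyl enzymes of the multi-synthetase complex, fell, as did Cars (-0.72), Vars (-0.72), Tars (-0.63) and Gars (-0.53), which charge cysteine, valine, threonine and glycine outside it. Eprs, Iars, Mars and Dars of the complex were not called, with values from -0.60 to 0.08, and Rars, also not called, was not well above background on these arrays.

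Against this direction, Nars, the cytosolic asparaginyl enzyme, rose. It lay at 0.07, 0.28, 0.50, 0.60, 0.61 and 0.84 in the day 7 controls and at 1.60, 1.78, 2.06, 2.61, 2.68 and 2.96 after 1 Gy neutrons. Every irradiated mouse was above every control, a rise of 1.80 (SE 0.24, adjusted p = 3.62e-05), or 3.47-fold. The other gene that rose was mitochondrial: Fars2, the mitochondrial phenylalanyl enzyme, ran from 2.07 to 2.52 in the controls (median 2.31) and from 2.82 to 3.90 in the irradiated mice (median 3.5), a rise of 1.14 (SE 0.18, adjusted p = 0.000139) with no overlap. Aars, the alanyl enzyme, had all 6 irradiated mice above all controls, beside 16.7% of all genes, but its difference of 0.68 (SE 0.16, adjusted p = 0.00278) was not called. Sars2, Sars and Dars, the mitochondrial and cytosolic seryl and the aspartyl enzymes, were at 0.45, 0.08 and 0.08 and were not called.

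**Figure D2:**
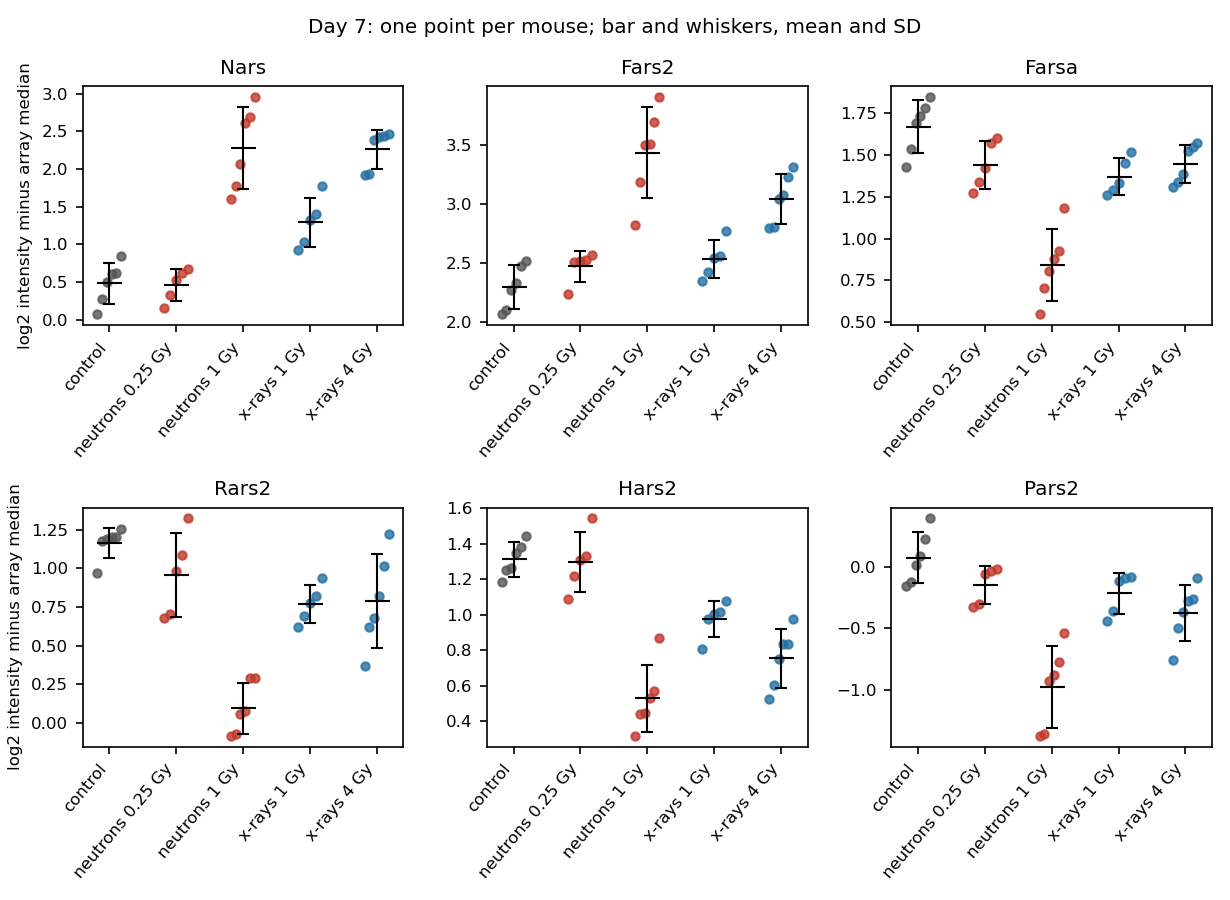
Level of Nars, Fars2, Farsa, Rars2, Hars2 and Pars2 (log2 intensity relative to the array median) in each mouse at day 7, by group, with bar and whiskers at the group mean and SD. After 1 Gy neutrons Nars and Fars2 lie above, and Farsa, Rars2, Hars2 and Pars2 below, all 6 controls; with arrays centred on spike-in controls the differences of Nars and Fars2 are -0.15 and -0.81.

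The direction of Nars and Fars2 depended on what the arrays were centred on. Centring on the spike-in control probes, which keeps the dimness of these arrays as a difference, moved the median of all genes at day 7 after 1 Gy neutrons by -1.95. It placed all 33 synthetase genes below the controls, with Nars at -0.15 and Fars2 at -0.81. Of the 33 it called 31, beside 69.2% of all genes called. Nars lay 1.85 above the median of all genes. Both centrings subtract 1 value per array, so this distance is the same under either by construction and is no test of the rise. With the background recomputed by normexp, the median of all genes moved by 0.17, and 5 genes fell and none rose, beside 12.3% of all genes called. The cytosolic median was then -0.58, the mitochondrial median turned to 0.24, Ears2 to 0.57 and Fars2 to -0.068. The mitochondrial median was therefore below 0 with the scanner's own background correction and not with normexp, whereas the cytosolic median lay below 0 under every setting tried, from -2.47 with spike-in centring to -0.15 with the fold filter. On the 6 irradiated arrays 27 of the 33 genes were well above background throughout, 4 on some arrays only (Aars2, Ears2, Iars2 and Vars2), and Rars and Wars2 on none, so that no fold against the controls is given for these last genes.

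Scan date was shared by only 1 of the 6 irradiated mice with the 6 controls. Within that date, the mouse lay a median of -0.75 from the controls over the 33 genes (all genes, -0.14) and 29 of 33 were below 0, with Nars at 1.30, Fars2 at 0.88 and Rars2 at -1.25. With scan date as a block, 4 genes fell and none rose, beside 14.3% of all genes called. Leaving out each mouse in turn left between 13 and 19 genes called.

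Where a gene had a second detected probe, it did not always follow. The other probe of Iars2 was at 1.45 where the probe used was at -0.97, and that of Wars was at 0.66 against -0.52. Those of Cars2 (-1.18), Tars2 (-1.18), Farsa (-0.33) and Vars2 (-0.28) lay below 0, as did the probes used. The fall of Iars2 thus holds for 1 of its probes.

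Marker RNA of several blood cell types moved at the same time. The paper reports that the composition of white blood cells did not change significantly after irradiation, and that total blood counts stayed normal. How the marker values relate to cell counts was not tested. After 1 Gy neutrons at day 7, 17 of 18 reticulocyte markers rose (median difference 2.69), 7 of 9 B cell markers fell (median -2.29), 3 of 11 T cell markers fell and 4 of 9 neutrophil markers rose, whereas 0 of 8 hepatocyte markers were called. The part of these shifts in the synthetase values was not tested. Leaving out the 1 irradiated mouse with a liver signal, a choice made after the data were seen, left 15 genes called (2 higher and 13 lower), and the hepatocyte level as a covariate left 11 (2 higher and 9 lower). Among all genes these fits called 33.7% and 25.4%.

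At day 7 after 4 Gy x-rays, 4 of the 33 genes rose and 1 fell, beside 7.71% called higher, 8.12% called lower and 15.8% called in either direction among all genes, and the median was 0.32 for the cytosolic and -0.11 for the mitochondrial enzymes (all genes, -0.05). The mitochondrial median turned to 0.20 with spike-in centring, which moved the median of all genes by 0.31, and to 0.04 with normexp, and the calls were then 2 rises and no fall and 1 rise and no fall. Among all genes these settings called 9.77% and 2.19%. Nars rose the most: its values of 1.92, 1.93, 2.39, 2.43, 2.44 and 2.47 all lay above the controls, whose highest was 0.84, a rise of 1.78 (SE 0.16, adjusted p = 7.64e-06). Fars2 ran from 2.79 to 3.31 (median 3.06), above all controls, and rose by 0.75 (SE 0.13, adjusted p = 0.0011). Hars and Dars, the cytosolic histidyl and aspartyl enzymes, rose by 0.58 (SE 0.12, adjusted p = 0.00367) and 0.57 (SE 0.13, adjusted p = 0.0061). Their calls held in only 12 of 25 and 4 of 26 alternatives, omitted mice included. A second probe of Iars2 was higher too (0.59, adjusted p = 0.00613, limma), where the probe used was at 0.12 and not called.

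The only fall there was that of Hars2, the mitochondrial histidyl enzyme. It lay at 1.18, 1.25, 1.26, 1.35, 1.38 and 1.44 in the controls and at 0.53, 0.61, 0.75, 0.83, 0.83 and 0.98 after 4 Gy x-rays, with no overlap (fall by 0.56, SE 0.11, adjusted p = 0.00199). Under the centring on the array median, the cytosolic histidyl gene was thus up and the mitochondrial one down in these mice. The difference between the pair was not tested. The call of Hars2 held in 20 of 25 alternatives. Of the 18 reticulocyte markers 8 rose in the same comparison (median 1.00), all 9 B cell markers fell and 5 of 7 natural killer cell markers rose, and the part of these shifts was not tested. Without the 3 mice with a liver signal, Nars was the only gene still called. The 4 Gy x-ray arrays of day 7 and the controls were scanned on different dates, so scan date and exposure cannot be told apart here.

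After 1 Gy x-rays at day 7, Nars was the only synthetase gene called, beside 2.64% of all genes called higher and 3.74% in either direction. With spike-in centring, which moved the median of all genes by -0.75, Nars was at 0.06. Its values of 0.93, 1.03, 1.32, 1.40 and 1.77 lay above every control (rise of 0.81, SE 0.18, adjusted p = 0.0259), and 11 of 18 reticulocyte markers rose in these mice. The call was lost when any of 9 of the 11 mice was left out, that is, each mouse but the fifth control and the third irradiated mouse. It was also lost with the hepatocyte level as a covariate and without the mice with a liver signal, a choice made after the data were seen. After 0.25 Gy neutrons no synthetase gene was called at day 7 (0.547% of all genes), with values from -0.51 to 0.40 and a median of -0.20. Spike-in centring, which moved the median of all genes by -1.02, called 17 synthetase genes lower, beside 30.2% of all genes called. Nars ran from 0.15 to 0.67 in these mice, inside the range of the controls. Nars therefore stood above the controls in every mouse of the 3 groups that had received 1 Gy or more, under the centring on the array median, and its levels overlapped between 1 Gy neutrons and 4 Gy x-rays.

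Set directly against 4 Gy x-rays at day 7, 16 of the 33 genes were lower after 1 Gy neutrons and none was higher, beside 14.6% of all genes called lower and 37.4% in either direction. Of these 11 were cytosolic and 5 mitochondrial, and the medians were -0.63 and -0.58 (all genes, -0.11). Besides the 3 genes below, Eprs (-1.09), Kars (-0.84), Mars (-0.83), Hars (-0.80), Iars (-0.78), Qars (-0.73), Gars (-0.64), Farsa (-0.60) and Vars (-0.58) of the cytosol and Ears2 (-0.88), Cars2 (-0.82), Yars2 (-0.74) and Rars2 (-0.69) of the mitochondrion were called lower. Tars ran from 0.74 to 1.11 after neutrons (median 0.78) and from 1.38 to 2.90 after x-rays (median 1.95), a difference of -1.14 (SE 0.21, adjusted p = 0.000435). Iars2 ran from -2.48 to -1.58 and from -1.47 to -0.48 (difference -1.09, SE 0.19, adjusted p = 0.000288). This holds for the probe used. The second probe of Iars2 was at 1.45 after neutrons and at 0.59 after x-rays, each against the controls, and was not tested between the exposures. Rars, the cytosolic arginyl enzyme, was not well above background on any neutron array. The dimmest signal above background on each neutron array had a mean of -2.72, which bounds Rars there. The x-ray mice ran from -2.96 to -2.10, on both sides of that bound, so a least fold is not given. The measured means were -3.83 and -2.58 (adjusted p = 0.00117, limma), and with normexp the difference was 0.92. Nars differed by 0.02 (SE 0.23, adjusted p = 0.949) and Fars2 by 0.39 (SE 0.18, adjusted p = 0.0752), and a value that misses the threshold does not show that the exposures act alike.

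In this comparison 9 of 18 reticulocyte markers were higher after neutrons, and the neutron arrays were the dimmer ones (median spot intensity 9.52 to 16.9, against 46.2 to 96.4). The part of either was not tested. Blocking on scan date left 2 calls, 1 higher and 1 lower, and the 1 neutron mouse scanned with the 6 x-ray mice lay a median of -0.72 from them over the 33 genes (all genes, -0.11). With normexp no gene was called and Rars and Iars2 turned to 0.92 and 0.14. Leaving out the 4 mice with a liver signal, a choice made after the data were seen, left 2 genes called. These counts stand without the share of all genes called. They cannot tell a change of the synthetase genes from one of all genes.

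Against 1 Gy x-rays at day 7, the same dose of neutrons gave 4 lower genes and 1 higher, beside 6.98% called lower, 13.1% called higher and 20.1% in either direction among all genes. Cars2 ran from -1.99 to -1.14 after neutrons (median -1.36) and from -0.85 to -0.40 after x-rays (median -0.70), a difference of -0.79 (SE 0.18, adjusted p = 0.0042). Eprs, which charges both glutamate and proline, ran from -1.58 to -0.97 and from -0.95 to -0.30 (difference -0.76, SE 0.17, adjusted p = 0.00357). Pars2 and Rars2 were also lower, at -0.76 (SE 0.18, adjusted p = 0.00489) and -0.68 (SE 0.13, adjusted p = 0.00212). Fars2 was higher after neutrons (2.82 to 3.90, median 3.5) than after x-rays (2.35 to 2.77, median 2.55), by 0.90 (SE 0.19, adjusted p = 0.00309), but at -0.31 with normexp and -0.30 with spike-in centring. The calls were 16 lower and none higher with 75th percentile centring, 9 lower and none higher with quantile normalization and 4 higher and 7 lower with normexp. The count ran from 0, without the third x-ray mouse, to 9, without the fourth neutron mouse, and was 1 with scan date as a block. Within the 2 shared dates the median over the 33 genes was -0.27 and -0.59. No gene was called without the mice with a liver signal, a choice made after the data were seen, and 2 were called with the hepatocyte level as a covariate. The share of all genes called was not set beside the counts of these settings. They therefore cannot tell a change of the synthetase genes from one of all genes. In the same comparison 7 of 18 reticulocyte markers were higher and 6 of 9 B cell markers lower, and the neutron arrays were dimmer (median spot intensity 9.52 to 16.9, against 26.3 to 36.0). The part of these shifts was not tested.

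On day 1 the synthetase genes that fell were Vars, which had also fallen at day 7 after 1 Gy neutrons, and Wars2. Vars, the valyl enzyme of the cytosol, lay at 0.91, 1.05, 1.40, 1.41 and 1.5 in the day 1 controls, at -0.28, -0.07, 0.11, 0.17, 0.37 and 0.60 after 1 Gy neutrons and at -1.10, -0.71, -0.56, -0.54 and -0.33 after 4 Gy x-rays. Neither irradiated group overlapped the controls. It fell by 1.10 after 1 Gy neutrons (SE 0.18, adjusted p = 0.00126), by 0.86 after 1 Gy x-rays (SE 0.14, adjusted p = 0.00364), where it ran from 0.18 to 0.55, and by 1.90 after 4 Gy x-rays (SE 0.19, adjusted p = 2.83e-05), or 3.73-fold. After 1 Gy x-rays Vars was the only synthetase gene called. With spike-in centring and with normexp no synthetase gene was called on day 1 after 1 Gy of either radiation. Among all genes these settings called 11.5% and 2.57% after 1 Gy neutrons and 3.82% and 0.0311% after 1 Gy x-rays.

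Wars2, the mitochondrial tryptophanyl enzyme, ran from -2.59 to -2.44 in the day 1 controls (median -2.56). It ran from -3.97 to -2.89 after 1 Gy neutrons (median -3.53), a fall by 0.91 (SE 0.20, adjusted p = 0.00482), and from -4.25 to -3.59 after 4 Gy x-rays (median -3.91), a fall by 1.37 (SE 0.16, adjusted p = 6.25e-05). Neither group overlapped the controls, although Wars2 turned to 0.15 after 4 Gy x-rays with normexp. The 2 genes called after 1 Gy neutrons, both lower, stand beside 10.7% of all genes called lower and 16.3% in either direction, and the 1 gene after 1 Gy x-rays beside 3.8% and 6.46%. Over the 33 genes the medians were -0.10 and -0.04. In the 1 Gy neutron and the 4 Gy x-ray mice 9 of 9 B cell markers fell as well, with 4 and 6 of 11 T cell markers and 2 and 13 of 18 reticulocyte markers, and after 1 Gy x-rays 7 of 9 B cell and 9 of 18 reticulocyte markers fell. The part of these shifts in the falls of Vars and Wars2 was not tested. Without 1 mouse the count for 1 Gy neutrons was 1 or 2.

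After 4 Gy x-rays at day 1, 3 synthetase genes rose beside the 2 that fell (all genes: 12.8% called higher, 16.6% called lower and 29.3% in either direction). Second probes of Cars2 (-1.23, adjusted p = 4.99e-05) and Farsa (-0.99, adjusted p = 0.000694) were lower too, where the probes used were not called, and the mean of the detected probes gave 3 rises and 4 falls. The rises depended on the centring, with 4 falls and no rise with the 75th percentile, 2 falls and 1 rise with quantile normalization and 2 falls and no rise with spike-in centring. Among all genes these settings called 33.9%, 30% and 22%. Aars lay at 0.26, 0.30, 0.39, 0.68 and 1.69 in the controls and at 1.57, 1.92, 2.24, 3.07 and 3.19 after 4 Gy x-rays, a rise of 1.73 (SE 0.37, adjusted p = 0.00217) with 4 of the 5 irradiated mice above every control. Fars2 lay at 1.96, 1.98, 2.08, 2.15 and 2.57 in the controls and at 2.89, 2.97, 3.32, 4.05 and 4.14 in the irradiated mice, with no overlap (rise of 1.33, SE 0.27, adjusted p = 0.00166). Eprs lay from -0.47 to -0.11 and from 0.54 to 1.75, also with no overlap (rise of 1.37, SE 0.26, adjusted p = 0.00128).

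**Figure D3:**
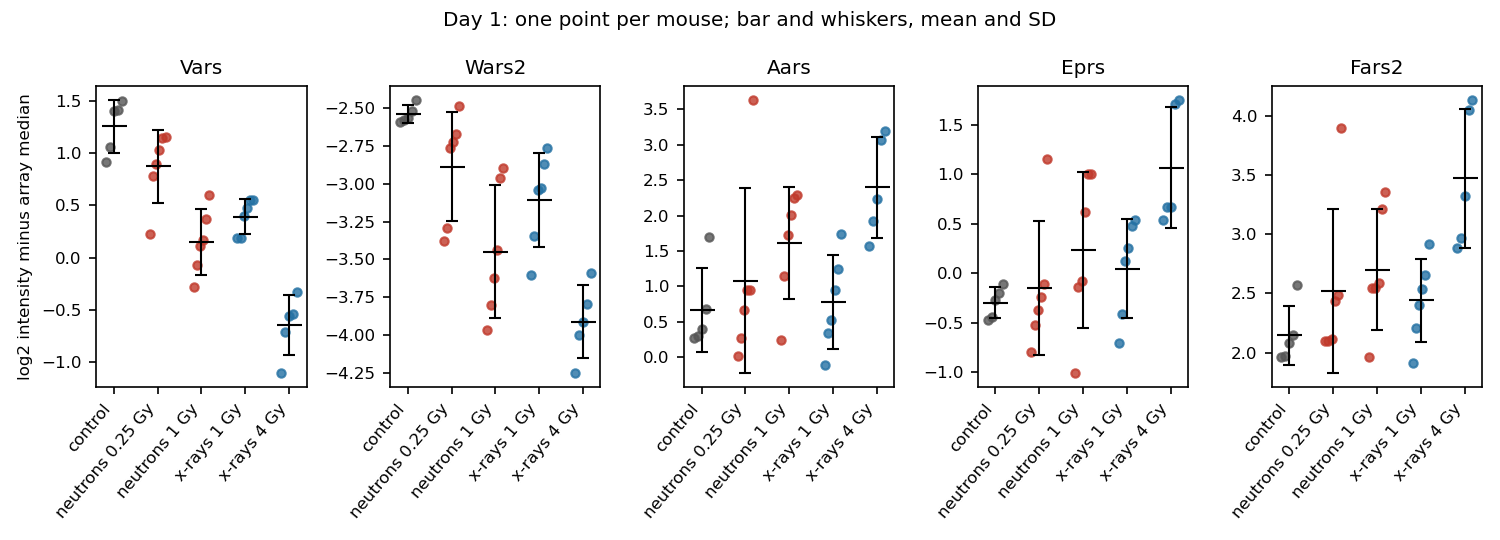
Level of Vars, Wars2, Aars, Eprs and Fars2 (log2 intensity relative to the array median) in each mouse at day 1, by group, with bar and whiskers at the group mean and SD. Vars lies from -1.10 to -0.33 after 4 Gy x-rays and from 0.91 to 1.5 in the controls, and 1 mouse of the 0.25 Gy neutron group stands above the rest of its group in Aars, Eprs and Fars2.

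These 3 rises moved with the liver signal. In each of the 5 groups of day 1 the mouse with the highest mean of the hepatocyte markers was also the mouse with the highest Aars and the highest Fars2, and it ranked 1 or 2 for Eprs. In the 0.25 Gy neutron group that mouse had a hepatocyte level of 8.05 and lay at 3.64 for Aars, 1.15 for Eprs and 3.89 for Fars2, where the other 5 mice reached at most 0.95, -0.11 and 2.49. This was not particular to the 3 genes. The same mouse lay above its group in Tars (4.05, others at most 1.71) and Mars (1.01, others at most -0.42), neither called after 4 Gy x-rays. In Vars it lay below its group (0.23, others at least 0.78). In the controls the mouse with the highest mean had a hepatocyte level of 5.61 and lay at 1.69 for Aars, where the other 4 reached 0.68. With the hepatocyte level as a covariate, Aars was at 0.88 (adjusted p = 0.227), Eprs at 1.03 (adjusted p = 0.107) and Fars2 at 0.88 (adjusted p = 0.15), none of them called. Vars and Wars2 kept their calls, at -1.66 (adjusted p = 0.0079) and -1.43 (adjusted p = 0.00836). The hepatocyte level was higher in every 4 Gy x-ray mouse (6.53 to 7.75) than in every control (-1.73 to 5.61). The covariate fit therefore cannot tell liver signal and exposure apart. It called 5.13% of all genes, against 29.3% without the covariate. All 5 mice of the 4 Gy x-ray group had a liver signal, so a fit without such mice could not be made. These ranks were chosen for display after the values were seen.

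After 0.25 Gy neutrons on day 1 no synthetase gene was called (0.00622% of all genes), with a median of 0.02. Against 1 Gy x-rays on day 1, 1 Gy neutrons gave 1 lower gene, Pars2, beside 8.36% of all genes called lower and 9.64% in either direction. Pars2 ran from -0.83 to -0.21 after neutrons (median -0.48) and from -0.09 to 0.47 after x-rays (median 0.23), without overlap (difference -0.70, SE 0.14, adjusted p = 0.00524). The call was lost without the sixth neutron mouse and without the second or the fifth x-ray mouse, with scan date or slide as a block, with spike-in centring, with normexp and with the 1.5-fold filter. In the same comparison 7 of 9 B cell and 8 of 11 T cell markers were lower, and their part was not tested. Between 1 Gy neutrons and 4 Gy x-rays on day 1 no synthetase gene was called (0.0311% of all genes), with differences from -0.84 to 0.80.

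On day 3 no synthetase gene was called after 0.25 Gy neutrons (1.54% of all genes) or 1 Gy x-rays (1.55%). The medians over the 33 genes were -0.07 and -0.10. Vars lay from -0.25 to 0.58 after 0.25 Gy neutrons and from 0.77 to 1.36 in the controls, and Nars spread from -0.02 to 2.23 in the 5 mice after 1 Gy x-rays, against -0.01 to 0.89 in the controls, and neither difference passed the test. Hepatocyte markers lay above the array median in 6 of 6, 3 of 5 and 2 of 5 of the neutron, x-ray and control mice of that day.

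The change of each effect from day 1 to day 7 was tested as the difference of the differences from the controls. For 1 Gy neutrons, Nars changed by 1.80 (SE 0.30, adjusted p = 5.65e-05), and Cars (-1.08, SE 0.19, adjusted p = 9.11e-05), Rars2 (-0.77, SE 0.19, adjusted p = 0.00268), Kars (-0.68, SE 0.17, adjusted p = 0.00307) and Qars (-0.67, SE 0.16, adjusted p = 0.00243) moved down, beside 16.1% of all genes called higher, 7.94% called lower and 24.1% in either direction. The Nars term turned to -0.65 with spike-in centring, and the count ran from 2, without the fifth control of either day, to 11, without the fourth 1 Gy neutron mouse of day 1. With scan date as a block and with normexp no gene was called. For 1 Gy x-rays Nars was the only gene called (1.29, SE 0.24, adjusted p = 0.00119), beside 5.05% called higher and 7.19% in either direction.

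For 4 Gy x-rays, 4 genes moved up between the days and none moved down, beside 11.3% of all genes called higher and 19.8% in either direction. Vars moved by 1.76 (SE 0.20, adjusted p = 1.68e-06) and Wars2 by 1.32 (SE 0.28, adjusted p = 0.000981), and both had fallen at day 1 and were not called at day 7. Nars moved by 1.75 (SE 0.26, adjusted p = 4.07e-05), from no call at day 1 to its rise at day 7, and Hars by 0.84 (SE 0.20, adjusted p = 0.00301). Wars2 was at -0.041 here with normexp. Reticulocyte markers moved up in the same contrasts, 16 of 18 for 1 Gy neutrons (median 4.06), 14 for 1 Gy x-rays (2.83) and 14 for 4 Gy x-rays (4.34), and their part was not tested.

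The genes that work beside the synthetases were read at day 7 after 1 Gy neutrons from lists chosen with earlier results of these data known. Among all genes 17.8% were called lower and 18.5% called higher there. The proteins that hold the multi-synthetase complex together fell too: Eef1e1 by 1.22, Aimp1 by 1.04 and Aimp2 by 0.71, that is 3 of 3, and 3 of the 8 enzymes of the complex fell (median -0.56). Mitochondrial translation factors fell in 7 of 12 cases (median -0.63), the most Qrsl1, a subunit of the enzyme that makes mitochondrial glutaminyl-tRNA from glutamyl-tRNA, by 1.52. Of 33 genes of tRNA processing and modification, 14 fell and 1 rose (median -0.73), with Pus1, a pseudouridine synthase, falling by 1.45 and Adat1, a tRNA adenosine deaminase, rising by 1.08. Xpot, which exports tRNA from the nucleus, fell by 0.88, and Aarsd1, an editing protein for mischarged alanyl-tRNA, fell by 1.14 as 1 of 2 called among 3 such genes.

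Other lists held genes that rose, beside the same 18.5% of all genes called higher and 17.8% called lower. Of 25 tested genes of the ATF4 and amino acid response, 9 rose and 3 fell (median 0.33), from Atf5, an ATF4 target that is itself a transcription factor, at 5.31 to Phgdh, the first enzyme of serine synthesis, at -1.26. Asns, which makes the asparagine that Nars charges, rose by 3.69 and Mthfd2, a mitochondrial folate enzyme, by 4.74. Atf4 itself differed by 1.26 (adjusted p = 0.0033) and was not called. Among the eIF2 alpha kinases, Eif2ak1, which senses heme in red cell precursors, rose by 2.04 and Eif2ak4, which senses uncharged tRNA, fell by 1.59. Elongation and termination factors rose in 4 of 10 cases and fell in 2, with Eef1d at 2.01 and Eef1g at -0.93. Of 8 genes of eIF2 and its exchange factor, 2 fell, Eif2b3 the most, by 1.07. Arrays were centred on the median here, and with spike-in centring all genes moved down by 1.95.

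**Figure D4:**
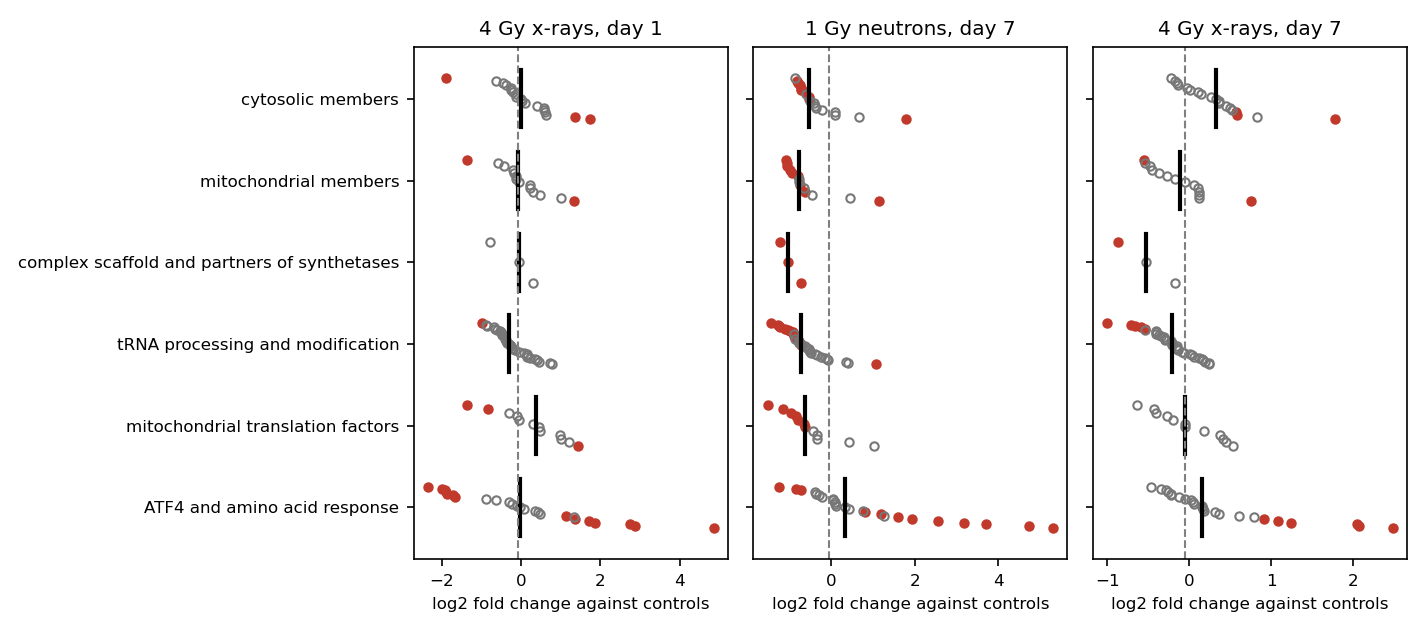
Log2 fold change against the controls of the day of every tested gene of the synthetase classes and 4 related lists, for 4 Gy x-rays on day 1 and, on day 7, 1 Gy neutrons and 4 Gy x-rays, with filled points for genes called, a black bar at the list's median and a dashed line at the median of all genes. After 1 Gy neutrons the tRNA processing list has its median at -0.73 and the ATF4 list at 0.33, under the centring on the array median.

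The same lists were read at day 7 after 4 Gy x-rays, where 15.8% of all genes were called against 36.2% after 1 Gy neutrons. Of all genes 7.71% were called higher and 8.12% lower after 4 Gy x-rays. Of the ATF4 list 6 genes rose and none fell (median 0.16), with Mthfd2 at 2.48 and Asns at 2.07, and of the eIF2 alpha kinases Eif2ak1 rose by 1.76 and Eif2ak4 and Eif2ak3 fell by 1.07 and 0.78. Of the scaffold genes Eef1e1 fell by 0.87, none of 12 mitochondrial translation factors was called, and 5 of 33 tRNA processing genes fell, Pus3 by 1.00. After 1 Gy x-rays at day 7, 5 of the ATF4 list rose, among them Mthfd2 (2.12) and Asns (1.66), beside 2.64% of all genes called higher. Nars was the only synthetase called in this group. On day 1 after 4 Gy x-rays 7 genes of the ATF4 list rose and 7 fell. Of all genes 12.8% were called higher and 16.6% lower. Cbs, the cystathionine synthase that liver expresses strongly, was at 4.86 and Slc1a5, a glutamine transporter, at -2.35. In the same comparison 4 of 8 hepatocyte markers rose.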

How the data were processed

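Blood RNA of 72 mice was measured on one-colour arrays, and groups were taken from the sample titles. The deposited array files hold the intensities that the authors extracted with Agilent Feature Extraction (12.0.2, per the submitters' processing notes), corrected for background within the array and not normalized between arrays. The table of log2 values that the authors normalized was deposited too, but 12 of its 72 columns follow the array of their own sample and 60 that of another, so it served only as an alternative for 0.25 Gy neutrons at day 1. The names of all 72 array files give the group of the title.

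Intensities were log2-transformed, control, non-uniform and outlier spots were left out, and spots of a probe were averaged. A probe was detected when under 25% of its spots on day 1 and day 7 arrays were flagged or not well above background (19808 of 39429 probes). Arrays were centred on their median detected probe, and each gene is its brightest detected probe. Groups were compared with limma 3.58.1 (R 4.3.3), fitted over 16086 genes for the 2 groups of each comparison (4 for changes between days). Since 72 arrays of 5 or 6 mice a group limit the precision, p-values refer to the spread between these mice. The study's 1.5-fold filter, which 11 of the 33 tested synthetase genes pass, was left to the alternatives, with other centrings, normexp (offset 50), quantile normalization, blocks and omitted mice. The test was checked on simulated data with 100 genes changed by 0.5 and 100 by 1 log2 unit, far fewer than were called in the data. For 1 Gy neutrons against controls at day 7 it recovered 2% and 47% of them and called 4 unchanged genes. For the 1 Gy neutron change between days it recovered 1% and 19%. With so few genes changed, the false discovery rate limit is stricter than in the data, so these shares do not measure recovery there. A gene not called may still have changed.

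The genes, lists and comparisons were chosen with earlier results of these data known. Every gene called was named, with full statistics for the 3 largest rises and falls where more than 6 were called, and values by mouse for the largest called change in each class and direction after 1 Gy neutrons and 4 Gy x-rays. Related lists are given by counts and by the called genes with the largest rise and fall. Asns, Atf4, Mthfd2, Aars and the genes described as not called were named after their values were seen. The same replicate numbers did not pair the mice: in 0 of 14 comparisons did every pair of equal number correlate above 0.1.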

Additional observations from a re-analysis of the deposited data

Results flagged for a closer look

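Single mice stood apart in 2 of the 32 groups of values examined, where chance alone would give about 1.6. Aars in the fourth day 1 control was 1.69, far above the next control at 0.678, a gap of 0.71 of the group's range. Rars2 in the second day 7 control was 0.969, below the next at 1.17, a gap of 0.726 of the range. That Aars mouse had the highest hepatocyte level of its group, and no explanation was tested for either.

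Tests of a difference between exposures or between days called synthetase genes in 6 comparisons. With 1 Gy neutrons set against the equal x-ray dose there was 1 call on day 1 (Pars2) and 5 on day 7, and against the higher x-ray dose there were 16 on day 7. For the change of an effect from day 1 to day 7 there were 5 calls for neutrons at 1 Gy, 1 (Nars) for x-rays at the same dose and 4 for x-rays at 4 Gy.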

How the results depend on the processing

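Counts are named here by exposure and day (N025, N1, X1 and X4 for 0.25 and 1 Gy of neutrons and 1 and 4 Gy of x-rays; d1, d3 and d7 for the day). Apart from omitted mice, 156 recomputed counts stayed within 1.5 times the reported one and 86 did not. The cause of a change was not tested. The share of all genes called moved too, to 69.2% in N1d7 and 30.2% in N025d7 with spike-in centring and to 12.3% in N1d7 with normexp. Where a count stands without that share, it cannot tell a change of the synthetase genes from one of all genes. With spike-in centring, the count was 0 in N1d1, X1d1 and N1d1 against X1d1, 2 in X4d1, X4d7, X1 between days and X4 between days, 17 in N025d7, 26 in N1d7 against X1d7, 31 in N1d7, 32 in N1 between days and 33 in N1d7 against X4d7. With 75th percentile centring, the count was 2 in X1d1 and X1 between days and 16 in N1d7 against X1d7. With quantile normalization, the count was 3 in X4d1 and 9 in N1d7 against X1d7. With normexp, the count was 0 in N1d1, X1d1, X1d7, N1d1 against X1d1, N1d7 against X4d7 and N1 between days, 1 in X4d1 and X4d7, 2 in X4 between days, 5 in N1d7 and 11 in N1d7 against X1d7. With dim spots set to missing, the count was 19 in N1 between days, 20 in N1d7 against X1d7 and 25 in N1d7 against X4d7. With no detection filter, the count was 0 in X1d7, 1 in N1d1, 2 in N1d7 against X1d7 and N1 between days and 3 in X4d7. With the 1.5-fold filter, the count was 0 in N1d1, X1d1, X1d7 and N1d1 against X1d1, 1 in N1 between days, 2 in X4d7 and N1d7 against X1d7, 5 in N1d7 and 6 in N1d7 against X4d7. With the mean of the detected probes, the count was 2 in X1d7. In 1 fit of all groups, the count was 0 in X1d7, 1 in N025d3, X1d3 and N1d1 against X4d1, 2 in X4d7 and X4 between days and 9 in N1d7 against X1d7.

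With the hepatocyte level as a covariate, the count was 0 in X1d7, 1 in N1d1, 2 in X4d1 and N1d7 against X1d7, 3 in X4d7 and 11 in N1d7. With scan date as a block, the count was 0 in N1d1 against X1d1 and N1 between days, 1 in N1d1 and N1d7 against X1d7, 2 in N1d7 against X4d7 and 4 in N1d7. With scan date as a random block, the count was 0 in X1d1, 1 in X1d3 and 2 in X1d7. Of the alternatives chosen after seeing the data: without the mice with a liver signal, the count was 0 in X1d7 and N1d7 against X1d7, 1 in X4d7 and 2 in N1d7 against X4d7. With the slide as a block, the count was 0 in N1d1 against X1d1 and 1 in N1d7 against X1d7. With the slide as a random block, the count was 0 in X1d7 and 3 in N1d1 against X4d1. Leaving out the mice with a liver signal could be fitted in 6 comparisons only.

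With the replicate block, the count was 0 in N1d1, X1d1, X1d7, N1d1 against X1d1 and N1d7 against X1d7, 2 in X4d1 and X4d7, 3 in N1 between days, 6 in N1d7 against X4d7 and 9 in N1d7. It moved no other count by over 1.5 times; the numbers did not pair the mice.

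Of the genes with full statistics, 366 values kept direction and call, 150 kept the direction only and 12 changed sign. With normexp, the log2 fold change turned for Wars2 to 0.15 in X4d1, Ears2 to 0.57 in N1d7, Fars2 to -0.068 in N1d7, Cars2 to 0.17 in N1d7 against X1d7, Fars2 to -0.31 in N1d7 against X1d7, Rars to 0.92 in N1d7 against X4d7, Iars2 to 0.14 in N1d7 against X4d7 and Wars2 to -0.041 in X4 between days. With spike-in centring, the log2 fold change turned for Fars2 to -0.81 in N1d7, Nars to -0.15 in N1d7, Fars2 to -0.30 in N1d7 against X1d7 and Nars to -0.65 in N1 between days. Of the class medians, 69 moved by less than the spread between mice and 17 by more.

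With each mouse left out in turn, the count ran from 1 to 2 in N1d1, 3 to 5 in X4d1, 13 to 19 in N1d7, 0 to 1 in X1d7, 3 to 6 in X4d7, 0 to 1 in N1d1 against X1d1, 0 to 9 in N1d7 against X1d7, 12 to 17 in N1d7 against X4d7, 2 to 11 in N1 between days, 1 to 2 in X1 between days and 3 to 5 in X4 between days, and it did not change elsewhere. In N1d1 the lower count came without any of controls 1, 2, 3 and 5 or neutron mice 2, 5 and 6, in X4d1 without any of controls 1, 2, 3 and 5, and in X4d7 without controls 1 or 4 or x-ray mice 2 or 4. In N1 between days, 11 came without day 1 neutron mouse 4, and 2 or 3 without day 1 controls 1, 4 or 5, day 1 neutron mice 3 or 5, day 7 controls 3, 5 or 6 or day 7 neutron mice 1, 2 or 6. In N1d7 against X1d7 the count was 3 or less without any mouse but neutron mouse 4 (9) and x-ray mouse 4, and in X1 between days 2 without day 1 control 4 or day 7 x-ray mouse 5. The dim arrays of N1d7 limit what can be measured there: Rars and Wars2 had no signal well above background.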
